A study of Mus musculus with 46 samples.

Results

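The UDP-glucuronosyltransferases (UGT) and the cytosolic and kappa-class glutathione S-transferases (GST) were followed as 1 module of 30 genes, 11 UGT and 19 GST, out of 19938 genes measured by a probe set with a single gene symbol. A gene belonged to the module when its symbol on the array platform began with Ugt and a digit, or with Gst, one of the class letters a, k, m, o, p, t or z, and a digit. The UGT members were Ugt2a3, Ugt2b1, Ugt2b5, Ugt2b34, Ugt2b35, Ugt2b36, Ugt2b37, Ugt2b38, Ugt3a1, Ugt3a2 and Ugt8a. No Ugt1a gene was among them, so results for the UGT genes do not cover that subfamily. The GST members were Gsta3, Gsta4, Gstk1, Gstm1 to Gstm7, Gsto1, Gsto2, Gstp1, Gstp3, Gstt1 to Gstt4 and Gstz1. Gstm3 had 2 probe sets, of which the one with the higher mean was used, and 10 further probe sets of these families carry several symbols and were not members.

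Liver RNA of 46 SKH:QS mice, a hairless stock, was measured on 1 array each. Virgin mice made up 1 experiment and mice at about 17 days of gestation another, each with 6 applications of sunscreen to the back within 4 days and removal of the liver on day 5. The arms were a sunscreen with 68ZnO microparticles (micro ZnO, 6 virgin and 5 pregnant mice), one with 68ZnO nanoparticles (nano ZnO, 6 and 6), the base without particles (formulation, 6 and 6) and untreated mice (6 and 5). The protocol gives collars against licking for the mice without saying whether the untreated ones wore them, and it gives neither the age of the mice nor the hour of harvest.

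Both families work in the conjugation step of detoxification. A UGT of the endoplasmic reticulum joins a sugar, usually glucuronic acid from UDP-glucuronic acid, to steroids, bilirubin, bile acids, drugs and plant phenols, and the conjugate leaves in bile or urine. A GST joins the tripeptide glutathione to electrophiles such as epoxides and lipid aldehydes, and the conjugate is exported and trimmed to a mercapturic acid. In mouse liver many genes of both families differ between the sexes and respond to the xenobiotic receptors CAR and PXR and to the oxidative stress factor NRF2.

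The values are log2 intensities after robust multi-array averaging (RMA), and a difference of 1 is a doubling. Array medians ran from 4.66 to 4.90 in virgin and from 3.98 to 4.12 in pregnant mice, so a difference between the experiments depends on the scaling and is given on 2 scales, and levels are never compared between genes. Arrays of the same experiment correlated at 0.968 to 0.990. Hepatocyte markers were high in all 46 arrays, with albumin (Alb) at 13.47 to 13.92. The contrast of an array, taken as its interquartile range, averaged 2.97 ± 0.07 (SD, n = 6) for untreated and 2.83 ± 0.05 (SD, n = 6) for formulation arrays of virgin mice, against 2.91 ± 0.03 and 2.90 ± 0.06 with micro and nano ZnO. Pregnant micro ZnO replicates 3 and 4 stood apart, holding the lowest value of their arm for 15 and 13 of the 30 members, as did virgin formulation replicate 5 for 18, pregnant nano ZnO replicate 1 for 17 and pregnant untreated replicate 4, 1 of the 5 pregnant controls, for 16.

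Among the UGT genes 8 lie side by side in the Ugt2 cluster of chromosome 5, in the order Ugt2b34, Ugt2b1, Ugt2b35, Ugt2b36, Ugt2b5, Ugt2b37, Ugt2a3 and Ugt2b38 in the RefSeq annotation of GRCm38.p6. The 120 bases before the annotated starts of 5 of them are shown because 3 of them share a long identical run. Ugt2b36 and Ugt2b1 stand beside them for contrast. All 5 are on the minus strand and are written 5′ to 3′ in the direction of transcription. Capitals mark, in the first 3, a run of 62 bases that is identical in Ugt2b5, Ugt2b37 and Ugt2b38, and in Ugt2b36 the 22 bases at the end of that run that it shares with them. Ugt2b1 holds neither run.
Ugt2b5, chr5:87140341-87140460: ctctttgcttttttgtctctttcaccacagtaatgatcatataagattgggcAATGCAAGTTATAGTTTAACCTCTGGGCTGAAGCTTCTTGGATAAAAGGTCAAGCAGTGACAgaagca
Ugt2b37, chr5:87254789-87254908: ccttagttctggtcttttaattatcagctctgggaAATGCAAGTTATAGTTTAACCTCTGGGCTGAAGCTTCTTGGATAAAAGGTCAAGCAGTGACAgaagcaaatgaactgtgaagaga
Ugt2b38, chr5:87424204-87424323: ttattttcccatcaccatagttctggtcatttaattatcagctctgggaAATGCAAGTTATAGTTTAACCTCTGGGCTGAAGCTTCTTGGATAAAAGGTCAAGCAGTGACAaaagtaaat
Ugt2b36, chr5:87092556-87092675: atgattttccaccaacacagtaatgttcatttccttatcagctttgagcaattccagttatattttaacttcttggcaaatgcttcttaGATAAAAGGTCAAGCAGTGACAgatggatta
Ugt2b1, chr5:86926504-86926623: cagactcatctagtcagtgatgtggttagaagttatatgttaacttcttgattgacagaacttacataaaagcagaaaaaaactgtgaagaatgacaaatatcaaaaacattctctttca

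Over the 250 bases before their starts, Ugt2b37 and Ugt2b38 were identical at 224 positions after alignment, Ugt2b38 and Ugt2b5 at 212 and Ugt2b37 and Ugt2b5 at 199, against 123 to 160 for the other pairs of Ugt2 genes. Of the 32851 upstream windows in the RefSeq table, 3 hold the 62-base run, those of these 3 genes. Bases before a start are not part of the measured RNA, and coding or probe sequences were not compared. Coding sequences of close relatives can be similar enough for a probe of one to bind RNA of another. The same holds within the Gstm, Gstp and Gstt genes, so a value of one of these members may include signal of a relative.

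A set of 4 motifs was searched on both strands of the 250 bases before the starts of the 27 members that the table holds (Ugt3a2, Gsta4 and Gstt2 are not in it). The antioxidant response element TGACNNNGC, the letters NRF2 is known to bind, was matched before Gsta3, Gstm5 and Gstm7, and it is matched in 10.2% of all windows. The xenobiotic response element core GCGTG, bound by the dioxin receptor, was matched before Gstm1, Gstm5, Gstp1, Gstp3 and Ugt8a, and in 28.2% of all windows. The STAT motif TTCNNNGAA was matched before Gstm6, and in 7.02% of all windows, and the HNF1 motif GTTAATNAT before 0 of the 27 members and in 0.737% of all windows. None of the 4 motifs contains another, and a match describes the letters alone.

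Virgin mice that received the particle-free formulation were first compared with untreated virgin mice. These arms differ in the sunscreen base and in its application, and whether they differ in collars is not given. The UGT members fell almost as a block, with 10 of 11 lower and 0 higher, and Ugt8a not called. Among GST genes 7 of 19 were lower and 0 higher. In all, 17 of the 30 members were called at an adjusted p under 0.05 by limma with Benjamini-Hochberg adjustment over 23410 probe sets, against 26.5% of all probe sets called and 15% called lower. The median change was -0.61 over the UGT genes, -0.21 over the GST genes and 0.03 over all probe sets.

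**Figure D1:**
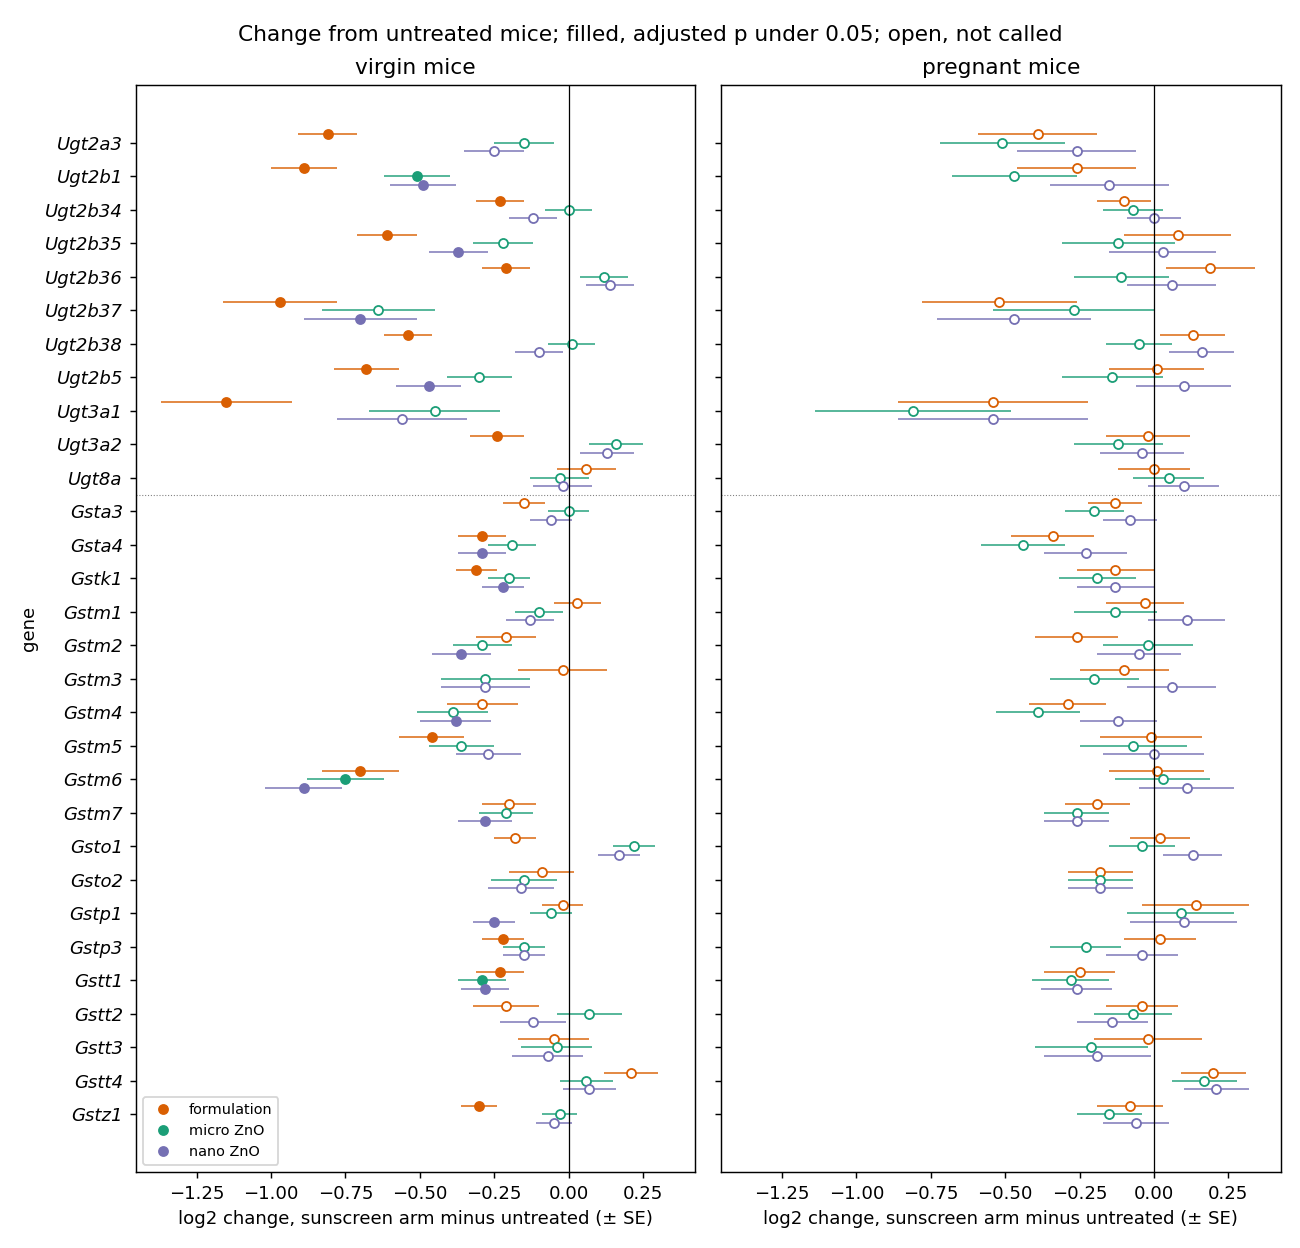
The log2 change (± SE) of each of the 30 members in each sunscreen arm against untreated mice of the same experiment, virgin mice on the left and pregnant mice on the right, with filled symbols for an adjusted p under 0.05. In virgin mice the UGT genes above the dotted line lie farthest to the left in the formulation arm, 17 members are filled there, and no symbol is filled in pregnant mice.

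Among the Ugt2 genes, Ugt2b1, a glucuronosyltransferase known for higher expression in male liver, ranged from 10.21 to 10.92 (median 10.55) in the 6 untreated virgin mice and from 9.20 to 9.88 (median 9.72) in the 6 formulation mice. The groups did not overlap. The change was -0.89 ± 0.11 (SE), 1.86-fold lower, with an adjusted p of 9.04e-06. Ugt2a3, of the small Ugt2a subfamily, ran from 10.60 to 10.93 (median 10.74) in untreated mice and from 9.41 to 10.19 (median 10.02) with formulation, again without overlap. It fell by 0.81 ± 0.10 (SE) on the log2 scale (limma adjusted p = 1.42e-05).

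The trio with the shared upstream run fell as well. Ugt2b5 ran from 9.48 to 9.97 (median 9.85) in untreated mice and from 8.72 to 9.40 (median 9.15) with formulation, and the change was -0.68 ± 0.11 (SE). Ugt2b38 ran from 8.62 to 8.99 (median 8.89) and from 8.07 to 8.49 (median 8.32), a change of -0.54 ± 0.08 (SE). In both genes every formulation mouse lay below every untreated mouse. Ugt2b37 ran from 5.12 to 6.70 (median 5.60) in untreated mice and from 4.39 to 5.26 (median 4.68) with formulation, and here 5 of 6 formulation mice lay below every untreated mouse. It fell by 0.97 ± 0.19 (SE), and the limma adjusted p of the 3 genes was at most 0.000941.

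The remaining Ugt2 genes were called lower too. Ugt2b35 changed by -0.61 ± 0.10 (SE, adjusted p = 0.000149, limma), with untreated mice at 8.20 to 8.57 (median 8.41) and formulation mice at 7.36 to 8.05 (median 7.82), which did not overlap. Ugt2b34 and Ugt2b36 were called at -0.23 ± 0.08 and -0.21 ± 0.08, and for both the groups overlapped. The plot of the clusters in chromosomal order sets these changes side by side, and differences between neighbouring genes were not tested.

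**Figure D2:**
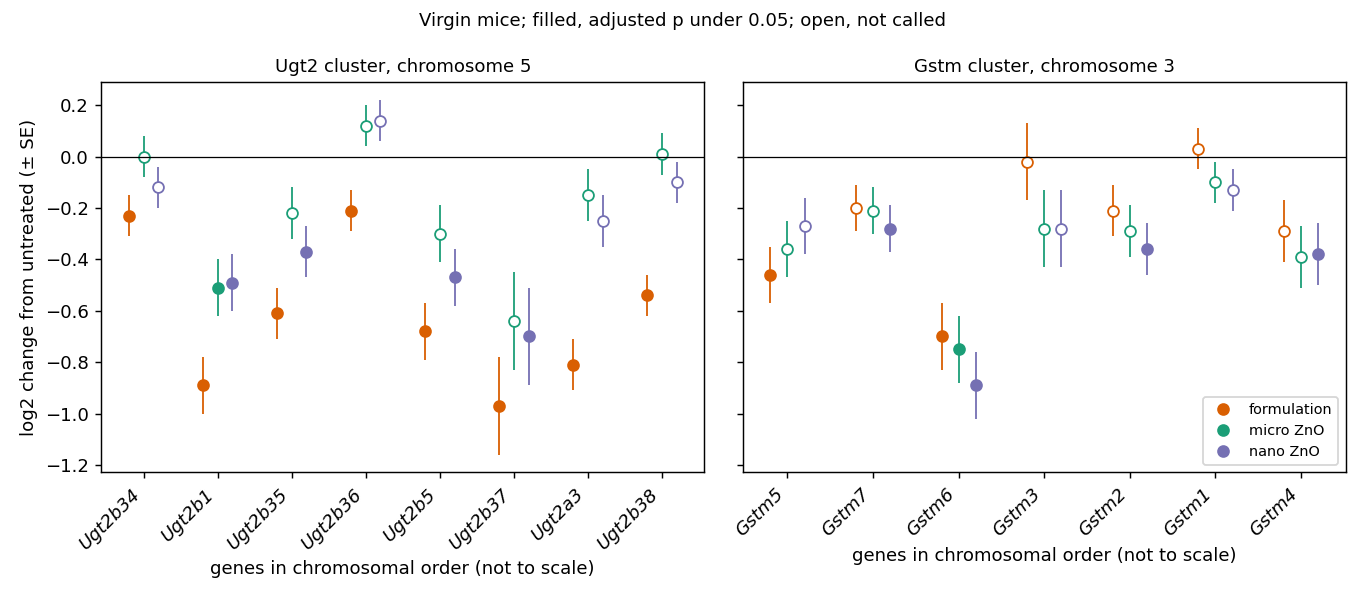
The log2 change from untreated (± SE) in virgin mice for the Ugt2 genes of chromosome 5 (left) and the Gstm genes of chromosome 3 (right), in chromosomal order and not to scale, with filled symbols for an adjusted p under 0.05. All 8 Ugt2 genes are filled for formulation, whereas among the 7 Gstm genes Gstm5 and Gstm6 are.

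Of the UGT genes elsewhere, Ugt3a1, which uses UDP-N-acetylglucosamine as its sugar donor and modifies bile acids, had the largest change of the module. It ran from 8.20 to 9.21 (median 8.84) in untreated mice and from 7.15 to 7.91 (median 7.84) with formulation, so the groups did not overlap. Its change was -1.15 ± 0.22 (SE), 2.22-fold lower, with a limma adjusted p of 0.000748. Its neighbour on chromosome 15, Ugt3a2, changed by -0.24 ± 0.09 (SE, limma adjusted p = 0.0493) with overlapping groups. Ugt8a, the ceramide galactosyltransferase known from myelin, was dim, with 3.76 to 4.43 over both groups, and its change of 0.06 ± 0.10 had a 95% interval of -0.14 to 0.25.

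Among the GST genes the mu class held the largest fall. Gstm6 ran from 7.40 to 7.96 (median 7.76) in untreated mice and from 6.67 to 7.31 (median 7.12) with formulation, without overlap, a change of -0.70 ± 0.13 (SE, limma adjusted p = 0.000675). Gstm5 fell by 0.46 ± 0.11 (SE). Gstm1, a major liver form of the class, lay in the same ranges in both groups, at 11.35 to 11.77 and 11.44 to 11.80, and its change of 0.03 ± 0.08 had a 95% interval of -0.13 to 0.19. Gstm3, beside Gstm6 on chromosome 3, changed by -0.02 ± 0.15, with an interval of -0.32 to 0.28.

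In the other GST classes the falls were smaller. Gsta4, which conjugates the lipid peroxidation product 4-hydroxynonenal, Gstk1 of mitochondria and peroxisomes, and Gstz1, the maleylacetoacetate isomerase of tyrosine breakdown, fell by 0.29 ± 0.08, 0.31 ± 0.07 and 0.30 ± 0.06 (SE). Gstt1 and Gstp3 were called at -0.23 ± 0.08 and -0.22 ± 0.07. The 12 GST genes that were not called had changes from -0.29 to 0.21. Among them Gsto1, an omega-class thiol transferase, had -0.18 ± 0.07 with a limma adjusted p of 0.0548.

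The lower contrast of the formulation arrays moved with this result. The contrast ran from 2.90 to 3.09 in untreated and from 2.76 to 2.89 in formulation arrays. These ranges lay apart, so a fit with the contrast cannot tell it apart from the formulation arm. With this contrast added to the fit, 4 members were called in place of 17, namely Ugt2a3, Ugt2b1, Ugt2b5 and Ugt2b38. A further quantile normalization left 11, and over all probe sets it left 3971 called in place of 6203. Leaving out formulation replicate 5 left 12 called, 0 of them higher. Of 10 neutrophil markers 6 were higher in the formulation arm, with a mean level of 4.28 to 5.07 per array against 4.09 to 4.19 in untreated mice, and of 10 endothelial markers 6 were lower, at 5.97 to 6.29 against 6.40 to 6.57. Of 10 stellate cell markers 3 were lower and 1 higher, at 6.25 to 6.50 against 6.37 to 6.61. Hepatocyte markers had 1 of 10 higher and 0 lower, at 12.80 to 12.90 against 12.77 to 12.92. The part of these cell types in the fall of the members was not tested, RMA values hold no zero, and in whole liver a lower share of a cell type and less RNA per cell cannot be told apart.

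The particle sunscreens were then set against the same untreated virgin mice. With micro ZnO 3 of 30 members were called, all lower (4.43% of all probe sets were called, 2.8% lower). With nano ZnO 12 were called, all lower (11.9% of all called, 7.18% lower), 4 UGT and 8 GST genes. The median over the UGT genes was -0.15 with micro and -0.25 with nano ZnO, and over the GST genes -0.15 and -0.22, beside 0.01 and 0.02 over all probe sets. In each of the 3 virgin sunscreen arms 3 members were called lower, Ugt2b1, Gstm6 and Gstt1, and 9 members were called in none. The 3 comparisons share the untreated mice, so their calls can overlap over the whole array. The shares of all probe sets called lower in all 3 arms or called in none were not computed.

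Gstm6 had the largest fall of the module in both particle arms. It ran from 6.88 to 7.18 (median 7.0) with micro ZnO and from 6.48 to 7.33 (median 6.85) with nano ZnO, all below the untreated range of 7.40 to 7.96. The changes were -0.75 ± 0.13 (SE, adjusted p = 0.00153) and -0.89 ± 0.13 (SE, adjusted p = 0.000204) by limma. Ugt2b1 lay at 9.92 to 10.18 (median 10.06) with micro ZnO and at 9.76 to 10.24 (median 10.08) with nano ZnO. Its micro ZnO mice were below every untreated mouse, and 4 of 6 nano ZnO mice were. It fell by 0.51 ± 0.11 and 0.49 ± 0.11 (SE). Gstt1, a theta-class enzyme that handles small halogenated molecules, was called at -0.29 ± 0.08 with micro ZnO, a call that ended in 17 of 22 alternatives with adjusted p from 0.017 to 0.504, among them the fits without any 1 of the 6 micro ZnO mice or without untreated replicate 1, 3, 5 or 6.

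Ugt2b37 and Ugt2b5 fell with nano ZnO, by 0.70 ± 0.19 and 0.47 ± 0.11 (SE), and Ugt2b35 by 0.37 ± 0.10. With micro ZnO the same genes had -0.64 ± 0.19, -0.30 ± 0.11 and -0.22 ± 0.10 and were not called. Gstm4, Gstm2 and Gsta4 fell with nano ZnO by 0.38 ± 0.12, 0.36 ± 0.10 and 0.29 ± 0.08 (SE). The call of Gstm4 ended without nano ZnO replicate 1, 4 or 6 or untreated replicate 1, 5 or 6, at -0.36 to -0.33, and that of Gstm2 without nano ZnO replicate 4, at -0.29. The other 4 called members, Gstm7, Gstt1, Gstp1 and Gstk1, had changes from -0.28 to -0.22.

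Without untreated replicate 1 the count for nano ZnO was 7, and without untreated replicate 2 the count for micro ZnO was 5. After a further quantile normalization 3 members were lower and 1 higher with micro ZnO, and 6 lower and 1 higher with nano ZnO. Over all probe sets it left 838 and 1984 called in place of 1036 and 2796. The clock genes, whose products set the daily rhythm, moved with the same arms. Their mean deviation per array was -0.33 to -0.22 in untreated mice, -0.04 to 0.39 with micro ZnO, 0.01 to 0.25 with nano ZnO and -0.26 to 0.20 with formulation. The deviation is a plain mean over 16 clock genes and no measure of phase. The untreated range lay apart from those of both particle arms, so a fit with it cannot tell this deviation apart from the particle arms. With that deviation as a covariate the count of members called was 12 for formulation, 0 for micro ZnO and 1 for nano ZnO. The share of all probe sets called in that fit was not recorded. The 1 called was Gstm6. Gstm6 then had -0.85 with micro ZnO (limma adjusted p = 0.106), and Ugt2b1 had -0.40 and -0.38 with micro and nano ZnO. Endothelial markers were lower for 6 and 7 of 10 genes in the micro and nano ZnO arms, at 6.01 to 6.28 and 6.03 to 6.31 against 6.40 to 6.57. Neutrophil markers were higher for 0 and 4 of 10 genes, at 3.98 to 4.46 and 4.31 to 5.51 against 4.09 to 4.19. Stellate cell markers were lower for 4 and 2 of 10 genes, at 6.03 to 6.35 and 6.19 to 6.62 against 6.37 to 6.61. The part of these cell types in the result was not tested.

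**Figure D3:**
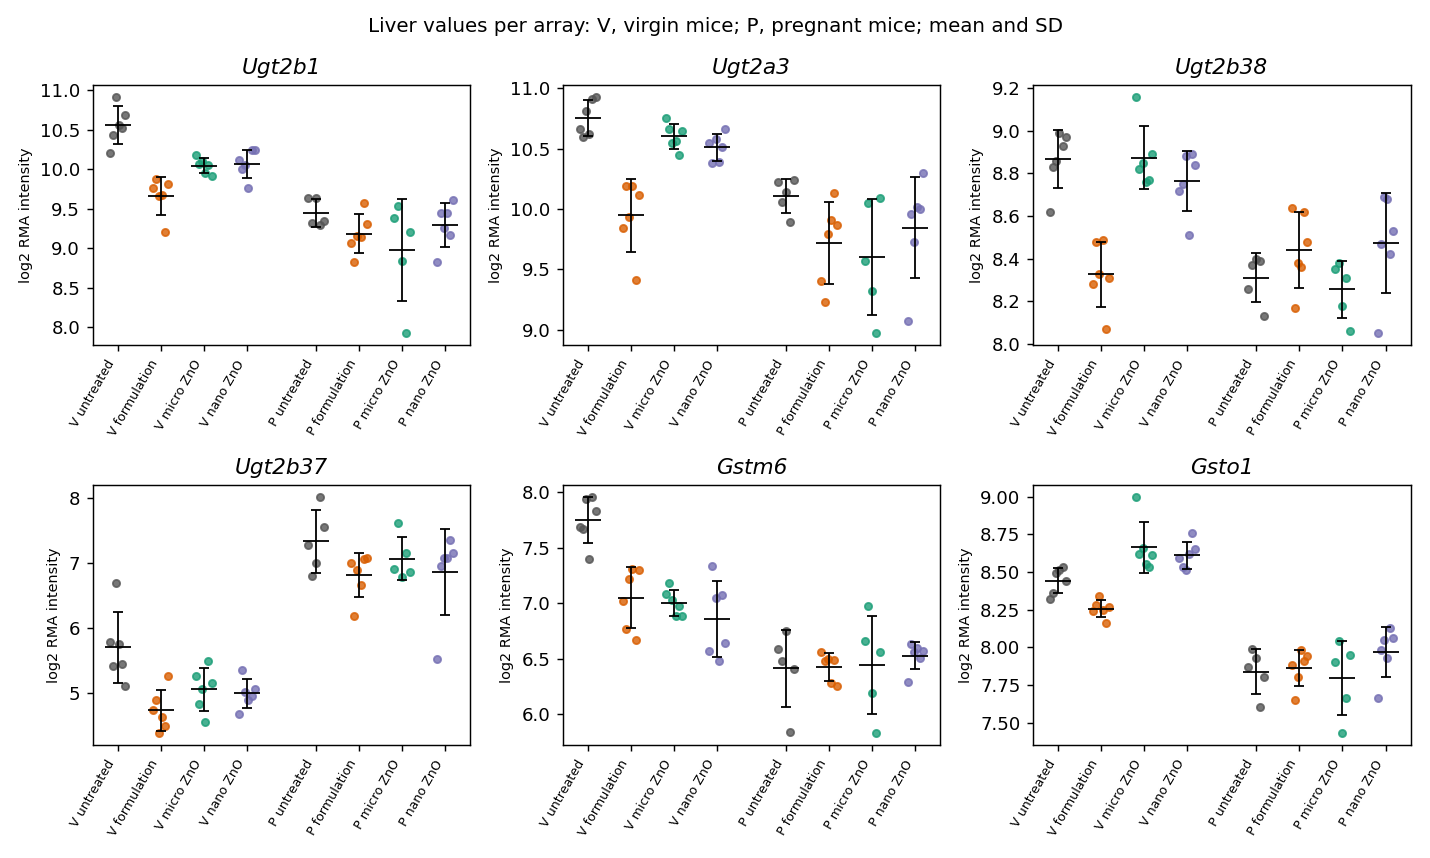
The RMA log2 value of each array (points) with the mean and SD (bars) for 6 members in the 8 groups, V for virgin and P for pregnant mice. Ugt2a3 and Ugt2b38 are lowest among virgin mice in the formulation arm, Gstm6 lies below untreated in all 3 virgin sunscreen arms, and Ugt2b37 is the panel in which the means of pregnant groups stand above those of virgin groups.

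The particle arms were compared directly with the formulation arm, which shares the sunscreen base with them. With micro ZnO 9 of 30 members were higher than with formulation and 0 lower (6.83% of all probe sets called, 5.14% higher). With nano ZnO 7 were higher and 0 lower (3.25% of all called, 2.52% higher). Of the UGT genes 7 and 5 of 11 were higher, with medians of 0.38 and 0.35, and of the GST genes 2 and 2 of 19, with medians of 0.00 and -0.05. With the contrast of the arrays in the fit 3 members were called in each comparison, Ugt2a3, Ugt2b38 and Gsto1. After a further quantile normalization the nano ZnO split was 6 higher and 1 lower, and the share of lower calls over all probe sets went from 22.2% to 35%.

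Ugt2a3 ran from 10.45 to 10.75 (median 10.61) with micro ZnO and from 10.38 to 10.66 (median 10.53) with nano ZnO, all above the formulation range of 9.41 to 10.19. It was higher by 0.66 ± 0.10 (SE, adjusted p = 0.000567) and 0.56 ± 0.10 (SE, adjusted p = 0.00443) by limma. Ugt2b38 ran from 8.76 to 9.16 (median 8.84) and from 8.51 to 8.89 (median 8.79), also above every formulation mouse. Its differences were 0.55 ± 0.08 and 0.44 ± 0.08 (SE). Against untreated mice the same particle arms had -0.15 ± 0.10 and -0.25 ± 0.10 for Ugt2a3 and 0.01 ± 0.08 and -0.10 ± 0.08 for Ugt2b38, none of them called.

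Gsto1 ran from 8.53 to 9.0 (median 8.61) with micro ZnO and from 8.51 to 8.76 (median 8.61) with nano ZnO, above the formulation range of 8.16 to 8.34. The differences were 0.41 ± 0.07 and 0.35 ± 0.07 (SE), with limma adjusted p of 0.00186 and 0.00735. Gstz1 was higher by 0.27 ± 0.06 and 0.24 ± 0.06. Ugt2b36 and Ugt3a2 had differences of 0.34 ± 0.08 and 0.39 ± 0.09 in the micro arm, then 0.35 ± 0.08 and 0.37 ± 0.09 in the nano arm, and neither gene was called against untreated mice in those arms. Ugt2b1 was higher by 0.38 ± 0.11 and 0.40 ± 0.11, and Ugt2b35 and Ugt2b5 were called with micro ZnO, at 0.40 ± 0.10 and 0.38 ± 0.11.

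**Figure D4:**
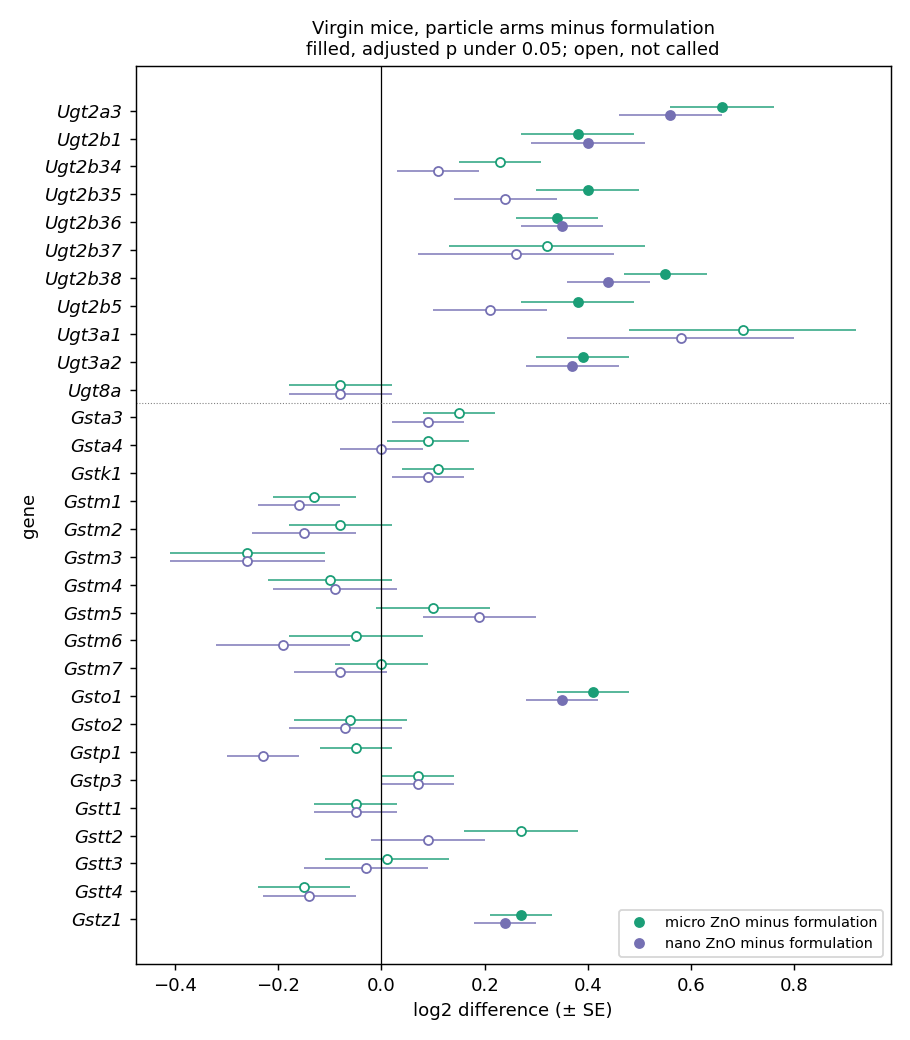
The log2 difference (± SE) of the virgin micro and nano ZnO arms from the virgin formulation arm for the 30 members, with filled symbols for an adjusted p under 0.05. The filled symbols all lie to the right of 0, and all but those of Gsto1 and Gstz1 belong to UGT genes.

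Gstm6 did not follow the UGT genes in this comparison. Its differences from formulation were -0.05 ± 0.13 and -0.19 ± 0.13, not called, with 95% intervals of -0.32 to 0.23 and -0.46 to 0.08. The calls of several smaller differences ended when a single array was left out, while the differences kept their sign. Without formulation replicate 5, nano ZnO replicate 5 or nano ZnO replicate 6 the nano ZnO count was 4, 4 and 3, and a fit of these groups alone gave 3. The call of Ugt2b1 with micro ZnO ended without formulation replicate 5 (0.29) or micro ZnO replicate 1, 2, 3 or 5 (0.35 to 0.38), and that of Ugt2b5 without formulation replicate 1, 3, 5 or 6 or micro ZnO replicate 1, 2, 3 or 6 (0.30 to 0.41). With nano ZnO the call of Ugt2b1 ended without formulation replicate 1, 4 or 5 or nano ZnO replicate 1, 5 or 6 (0.31 to 0.42), that of Gstz1 without formulation replicate 1, 3 or 5 or nano ZnO replicate 1, 4, 5 or 6 (0.21 to 0.25), that of Ugt3a2 without formulation replicate 5 or nano ZnO replicate 5 or 6 (0.30 to 0.35), and that of Ugt2b36 without nano ZnO replicate 6 (0.32).

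Nano and micro ZnO, which differ by particle size, were compared with each other last. In virgin mice 0 of 30 members were called (0% of all probe sets), with 1 member at an unadjusted p under 0.05 in limma, Gstp1, a pi-class enzyme with high levels in male mouse liver. It ran from 10.36 to 10.69 (median 10.59) with micro ZnO and from 10.19 to 10.51 (median 10.40) with nano ZnO, and the groups overlapped. The difference was -0.19 ± 0.07 (SE, limma adjusted p = 0.993), with a 95% interval of -0.33 to -0.04. Over the 30 members the differences ran from -0.19 to 0.09, and the outermost bounds of their intervals were -0.57 and 0.34. The share of all probe sets at an unadjusted p under 0.05 was not computed.

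The pathway around the 2 families was described with lists of related genes. Against untreated virgin mice 26.5%, 4.43% and 11.9% of all probe sets were called with formulation, micro and nano ZnO. Called lower were 15%, 2.8% and 7.18%, and these shares stand beside every list count below. Of 89 list entries, repeated genes counted each time, 24, 7 and 16 were lower and 5, 3 and 6 higher. Whether a list differed from all probe sets was not tested. In the virgin formulation arm 4 of 13 genes of glutathione synthesis and recycling were lower and 1 was higher, and the list's median was -0.17. The largest fall was in Gclc, the catalytic subunit of the rate-limiting enzyme of glutathione synthesis, at -0.87 ± 0.12 (SE), and its partner subunit gene Gclm fell by 0.36 ± 0.07. Gclc fell in both particle arms too, with changes of -0.82 ± 0.12 (micro) and -0.93 ± 0.12 (nano) and all 6 mice of each arm below every untreated mouse. It was the only gene of its list called with micro ZnO, and 2 of 13 were lower with nano ZnO.

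The list of UDP-glucuronic acid supply and glucuronide hydrolysis also holds Gusb, Ugcg, Uggt1 and Uggt2. Of its 10 genes 3 were lower and 1 higher with formulation, 0 were called with micro ZnO and 3 were lower with nano ZnO. Ugp2, which makes UDP-glucose, fell by 0.44 ± 0.10 with formulation, and Slc35d1, a carrier of UDP-glucuronic acid into the endoplasmic reticulum, rose by 0.25 ± 0.08. Among 7 conjugate exporters Abcg2 fell in all 3 arms, by 0.53 ± 0.07, 0.37 ± 0.07 and 0.42 ± 0.07, and Abcc2, which carries glucuronides and glutathione conjugates into bile, rose with micro and nano ZnO by 0.37 ± 0.09 and 0.42 ± 0.09. Of 10 genes of mercapturic acid processing 4, 1 and 3 were lower in the formulation, micro and nano ZnO arms and 0 higher, and Cndp2, a dipeptidase, was among them in each.

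Of 11 microsomal GST genes and other relatives 2 were lower and 1 higher with formulation, 1 lower with micro ZnO, and 3 lower and 1 higher with nano ZnO. Mgst1, the membrane-bound transferase of liver, fell by 0.29 ± 0.06, 0.22 ± 0.06 and 0.23 ± 0.06. Of 11 regulators 3 were lower and 2 higher with formulation, 1 was higher with micro ZnO and 2 were higher with nano ZnO. Nfe2l2, the gene of NRF2, and Arnt, the partner of the dioxin receptor, fell by 0.37 ± 0.09 and 0.31 ± 0.08 with formulation, and Rxra and Maff, partners of the nuclear receptors and of NRF2, rose by 0.23 ± 0.07 and 0.41 ± 0.10. Nr1i3, the gene of CAR, rose by 0.66 ± 0.12 and 0.61 ± 0.12 with micro and nano ZnO. Ppara, a lipid-sensing receptor, fell by 0.44 ± 0.14 with formulation and was higher with micro and nano ZnO than with formulation by 0.72 ± 0.14 and 0.58 ± 0.14.

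Target genes outside the 2 families were counted in the same way. Of 9 other NRF2 targets 3, 0 and 1 were lower in the formulation, micro and nano ZnO arms and 0 higher, with Ephx1, a microsomal epoxide hydrolase, at -0.38 ± 0.09 with formulation. Of 11 CAR and PXR targets 4, 3 and 3 were lower and 0, 1 and 1 higher. The higher one was Alas1, the first enzyme of haem synthesis, at 1.48 ± 0.42 and 1.86 ± 0.42. Of 7 dioxin receptor targets 0, 0 and 1 were called, and the one was Cyp1a1, higher by 0.40 ± 0.13 with nano ZnO.

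In pregnant mice no member was called in any sunscreen comparison. The counts were 0 of 30 for formulation, micro ZnO and nano ZnO against untreated (0.0598%, 0.107% and 0.0214% of all probe sets called) and 0 of 30 for the 3 comparisons among sunscreens (0%). At an unadjusted p under 0.05 in limma 3, 7 and 2 members were lower and 0 higher in the comparisons with untreated mice, and 1, 0 and 0 were lower in micro ZnO minus formulation, nano ZnO minus formulation and nano minus micro ZnO. The share of all probe sets at that unadjusted threshold was not computed, so these counts have no background beside them. The median over the members was -0.06, -0.15 and -0.05 in the 3 arms against untreated mice.

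Gsta4 had the smallest p in the formulation and micro ZnO arms. Its 5 untreated pregnant mice had 8.69, 8.61, 8.84, 8.48 and 8.65, and the 6 formulation mice ran from 8.02 to 8.45 (median 8.39), all below them. The change was -0.34 ± 0.14 (SE, limma adjusted p = 0.345). The 5 micro ZnO mice had 8.28, 8.80, 8.0, 7.65 and 8.35, so that replicate 2 lay among the untreated mice. Without it the change was -0.58 with a limma adjusted p of 0.0319, the only fit in which a member was called, against -0.44 ± 0.14 and 0.297 with it.

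Other members near the top of these comparisons were Gstm4, at -0.29 ± 0.13 with formulation and -0.39 ± 0.14 with micro ZnO, and Gstt1, at -0.25 ± 0.12 with formulation and -0.26 ± 0.12 with nano ZnO. Ugt3a1 had -0.81 ± 0.33 with micro ZnO, with a 95% interval of -1.48 to -0.13. Gstm7 and Gstt4 had -0.26 ± 0.11 and 0.21 ± 0.11 with nano ZnO. None of these was called. Of 10 neutrophil markers 3 were higher with micro ZnO, at 4.94 to 6.02 per array against 4.13 to 4.52, and their part in the values of the members was not tested. The outermost bounds of the 95% intervals over the 30 members were -1.48 and 0.50 in the comparisons with untreated mice, so falls of the size seen in virgin mice lay within the intervals of some genes.

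Among pregnant sunscreen arms the smallest p values of micro ZnO minus formulation belonged to Gstp3 (-0.25 ± 0.12), Ugt2b36 (-0.30 ± 0.15) and Ugt2b38 (-0.18 ± 0.11), and those of nano ZnO minus formulation to Gstm2, Gstm4 and Gstm3, at 0.16 to 0.20. For nano minus micro ZnO they belonged to Ugt2b38, Gstm4 and Gstm1, at 0.22 to 0.26. Without pregnant micro ZnO replicates 3 and 4 the value of Ugt2b36 was 0.00.

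Whether a response differed between pregnant and virgin mice was tested as an interaction in 1 fit of all 8 groups. For formulation 1 of 30 members was called (0.145% of all probe sets), Ugt2b38. Its 5 untreated pregnant mice had 8.26, 8.37, 8.40, 8.39 and 8.13, and the 6 pregnant formulation mice ran from 8.17 to 8.64 (median 8.43), overlapping them, where the virgin groups did not overlap. The response was 0.13 ± 0.11 in pregnant and -0.54 ± 0.08 in virgin mice, and the difference was 0.67 ± 0.13 (SE, limma adjusted p = 0.018). The call ended with the replicate number as a block (limma adjusted p = 0.0823). The next members were Ugt2b5, Gstm6 and Ugt2b35, at 0.68 ± 0.20, 0.72 ± 0.21 and 0.69 ± 0.21, which were not called. The median difference was 0.45 over the UGT genes, 0.02 over the GST genes and -0.01 over all probe sets. At an unadjusted p under 0.05 in limma 7 members differed, and for no interaction was the share of all probe sets at that threshold computed.

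For nano ZnO 1 of 30 members was called (0.0427% of all probe sets), Gstm6. The 5 untreated pregnant mice had 6.59, 6.48, 6.75, 5.84 and 6.41, and the 6 nano ZnO mice ran from 6.29 to 6.63 (median 6.56), inside that range. The response was 0.11 ± 0.16 in pregnant and -0.89 ± 0.13 in virgin mice, a difference of 1.01 ± 0.21 (SE, limma adjusted p = 0.0453). The call ended in 22 of 33 alternatives, with adjusted p from 0.0119 to 0.172. These included the fits without virgin nano ZnO replicate 1, 4 or 6, virgin untreated replicate 1, 2, 3, 5 or 6, pregnant nano ZnO replicate 2, 3, 4, 5 or 6, or pregnant untreated replicate 2, 4 or 5, in which the difference was 0.86 to 1.02.

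For micro ZnO 0 of 30 members were called (0.047% of all probe sets), with 2 at an unadjusted p under 0.05 in limma, Gstm6 at 0.77 ± 0.22 and Gsto1 at -0.26 ± 0.13. Without pregnant micro ZnO replicates 3 and 4 Gstm6 was called, at 1.06 ± 0.21 (limma adjusted p = 0.0367). Virgin and pregnant mice came from separate experiments, so the difference between the experiments and pregnancy cannot be told apart.

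The untreated mice of the 2 experiments were compared as well. Pregnant minus virgin, 27 of 30 members were lower and 2 higher, beside 91.4% of all probe sets called (90.5% lower, 0.824% higher) and a median over all of -0.61, so nearly the whole array was lower in pregnant mice as deposited. After a joint quantile normalization of the 46 arrays the median of all probe sets was -0.02, 31.8% of them were called, and of the members 14 were lower and 2 higher. The members' median as deposited was -0.73, and 21 of 30 lay below the median of all probe sets.

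Ugt2b37 stood out by its direction. The 5 untreated pregnant mice had 7.28, 6.80, 7.0, 8.02 and 7.55, and the 6 untreated virgin mice ran from 5.12 to 6.70 (median 5.60), so every pregnant mouse lay above every virgin mouse. The difference was 1.63 ± 0.24 (SE, limma adjusted p = 5.73e-08) as deposited and 2.09 ± 0.24 after joint normalization. Ugt2b5 and Ugt2b38, with the same upstream run, had -0.84 ± 0.15 and -0.56 ± 0.10 as deposited and -0.40 ± 0.14 and -0.11 ± 0.10 after it, so the 3 relatives differed in direction or size on both scales.

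Gstt3, a theta-class gene, was the other member that was higher, by 0.41 ± 0.16 as deposited and 0.87 ± 0.15 after joint normalization. The 5 pregnant mice had 9.35, 9.36, 9.18, 9.21 and 8.49 and the virgin mice ran from 8.54 to 8.93 (median 8.69). Of these, 4 of 5 pregnant mice lay above every virgin mouse, and replicate 5 lay below all of them. Without pregnant replicate 1 or 2 the call ended, at 0.35.

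The largest falls were in Ugt3a1 and Gsta4. Ugt3a1 had 7.20, 7.16, 7.28, 5.59 and 7.40 in pregnant mice, all below the virgin range of 8.20 to 9.21, with a difference of -1.85 ± 0.29 as deposited and -1.37 ± 0.29 after joint normalization. Gsta4 was lower by 1.43 ± 0.11 and 0.99 ± 0.11. Gstm6, Gstt1, Gstk1 and Gstm1 had -1.34 to -1.26 as deposited and -0.86 to -0.84 after joint normalization. Gstp1 was the member not called as deposited, at -0.20 ± 0.14, and it had 0.25 ± 0.14 after joint normalization, so its sign turned with the scaling.

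**Figure D5:**
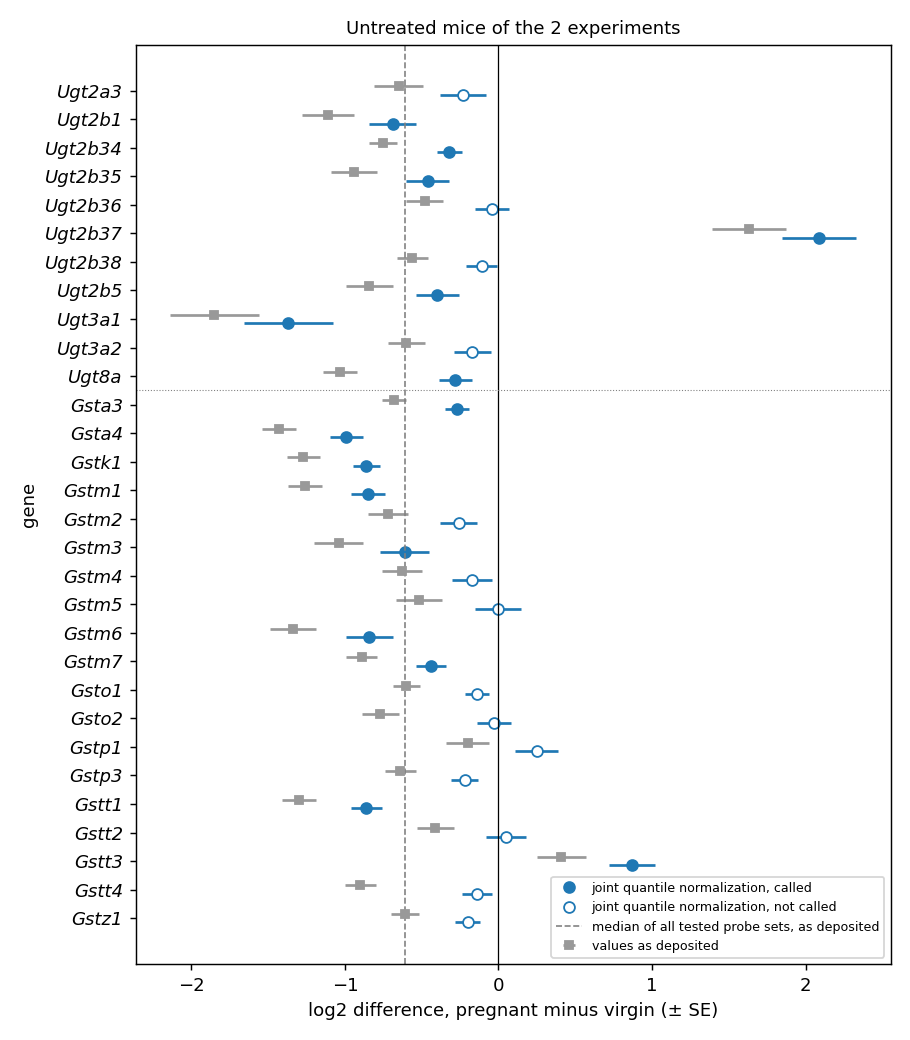
The log2 difference (± SE) between untreated pregnant and untreated virgin mice for the 30 members, as deposited (grey squares) and after joint quantile normalization (circles, filled for an adjusted p under 0.05), with the dashed line at the median of all probe sets as deposited, -0.61. Ugt2b37 and Gstt3 lie right of 0 on both scales, and Ugt3a1 lies farthest to the left.

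The 10 probe sets of these families that carry several symbols were read as a group. In the virgin formulation arm 2 of 10 were lower and 0 higher, with a median of -0.22. Beside them 26.5% of all probe sets were called and 15% called lower. In each particle arm 2 of 10 were higher than with formulation, beside 5.14% (micro ZnO) and 2.52% (nano ZnO) of all probe sets. Of the 10 probe sets 0 were called in the other comparisons of sunscreens, virgin or pregnant, where at most 11.9% of all probe sets were called.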

How the data were processed

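Liver RNA was measured on 1 array per mouse, and the labels call the mice of a group biological replicates. The authors deposited log2 intensities, made by robust multi-array averaging per the submitters' processing notes, and virgin and pregnant arrays differ in their medians, so tests of treatment were made within an experiment. A genome build for the probe annotation is not given in the sources used here. Of 35512 probe sets, the 23410 with at least 1 gene symbol were tested, of which 1621 carry several symbols and name no gene. Differences were fitted with limma 3.58.1 (lmFit and eBayes) in R 4.3.3 over the 4 arms of an experiment, or over all 8 groups for interactions and for untreated pregnant against virgin mice. A difference was called at a Benjamini-Hochberg adjusted p under 0.05 over all probe sets tested, and the fits were tested on simulated data. The members, the pathway and marker lists and the tests were chosen with earlier results of these data known. Members were named by a rule that takes up to 8 called members each way in a comparison by size of change, or the 3 with the smallest p where none is called, and up to 4 called genes of a pathway list. Its last clause, the most and least abundant member of each family, was not used because levels of different probe sets are not comparable. Members outside the rule were named after their values were seen. Upstream sequences are those of RefSeq, GRCm38.p6. Replicate numbers were not taken as pairs of mice, and the labels do not say whether they are. Of same-numbered pairs, 1 of 36 in virgin and 12 of 31 in pregnant mice had deviations correlated above 0.1. Differently numbered pairs were not computed, so these counts cannot decide it. The number of arrays limits the precision. Alternatives were other scalings, covariates, probe set filters, a replicate block and leaving out each array.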

Additional observations from a re-analysis of the deposited data

Results flagged for a closer look

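In 16 of 240 sets of 5 or 6 arrays (each member in each group), 1 array stood apart from the rest of its group by Dixon's criterion, where chance gives about 1 in 20. Pregnant nano ZnO replicate 1 held 4 of them, all low: Gstm6 at 6.29 (others 6.51 to 6.63), Ugt2b37 at 5.53 (6.96 to 7.36), Ugt3a1 at 4.97 (6.47 to 7.08) and Ugt3a2 at 9.0 (9.50 to 9.73). In the same arm Gstm2 was 6.91 in replicate 5 (7.27 to 7.48). Virgin formulation replicate 5 was low for Ugt2b1, at 9.20 (9.66 to 9.88), and for Ugt2b36, at 10.25 (10.66 to 10.78).

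Virgin micro ZnO replicate 1 was high for Gsto1, at 9.0 (8.53 to 8.66), and for Ugt2b38, at 9.16 (8.76 to 8.89). In the same arm Gstm7 was 9.10 in replicate 3 (8.63 to 8.80) and Gstm3 was 9.43 in replicate 6 (10.00 to 10.30). Ugt2b35 was 8.25 in virgin nano ZnO replicate 6 (7.93 to 8.04). Among pregnant micro ZnO mice Gstm3 was 8.53 in replicate 4 (9.10 to 9.27) and Ugt2b34 was 9.21 in replicate 3 (9.59 to 9.68). Among untreated pregnant mice Ugt3a1 was 5.59 in replicate 4 (7.16 to 7.40) and Gstt3 was 8.49 in replicate 5 (9.18 to 9.36).

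Responses that differed between pregnant and virgin mice by the interaction test were that of Ugt2b38 to formulation, by 0.67, and that of Gstm6 to nano ZnO, by 1.01.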

How the results depend on the processing

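Counts of members called are given against those reported, and the cause of each change was not tested. Calls over all probe sets were recorded for the quantile normalizations alone, so other changes may hold for the whole array too. In virgin mice, formulation minus untreated (17 reported) gave 11 after further quantile normalization, 4 when the interquartile range entered the fit and 7 with a 1.5-fold minimum, and 12 to 18 when each array was left out. Micro ZnO minus untreated (3) gave 7 without dim probe sets, 6 with a trended robust fit, 5 with array weights, 0 with the clock covariate, 1 with the 1.5-fold minimum and 2 to 5 by array left out. Nano ZnO minus untreated (12) gave 7 under quantile normalization, 6 lower and 1 higher. It gave 3, 1 and 2 under the interquartile range, the clock covariate and the 1.5-fold minimum, and 7 to 12 by array. Micro ZnO minus formulation (9) gave 3 with the interquartile range, 1 with the 1.5-fold minimum and 7 to 9 by array. Nano ZnO minus formulation (7) gave 3 from the groups compared alone, 3 with the interquartile range, 0 with the 1.5-fold minimum and 3 to 8 by array. The pregnant micro ZnO comparison with untreated mice gave 0 to 1 by array.

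The formulation interaction (1) gave 0 with the replicate block, where Ugt2b38 had 0.66 at an adjusted p of 0.0823 in limma, and 1 for every array left out. The micro ZnO interaction (0) gave 1 without pregnant micro ZnO replicates 3 and 4. The nano ZnO interaction (1) gave 0 with all probe sets, further or joint quantile normalization, the groups compared alone, the replicate block or the interquartile range, and 0 to 1 by array. Untreated pregnant minus virgin (29) gave 16 after joint normalization and 28 to 30 by array. Ugt2b36 turned sign in pregnant micro ZnO minus formulation, at 0.00 without micro ZnO replicates 3 and 4 against -0.30.

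With the replicate number as a block the 5 virgin comparisons with calls gave 12, 2, 8, 7 and 5. Same-numbered mice had correlations of -0.35 to 0.20 in virgin and -0.15 to 0.23 in pregnant mice, and whether the numbers pair the mice is not known. No block was fitted for untreated pregnant against virgin mice. For single named genes, 1378 alternative values kept the side of the threshold and the direction, 150 lost the call, 2 gained it and 1 turned sign. Gsto2, Gstt4 and Ugt8a are dim, which limits their values.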
